A study of Homo sapiens with 8 samples.

Results

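Of 36493 promoter windows on chromosomes 1 to 22 in SiHa cells, 479 (1.31%) were nearly free of trimethylated lysine 9 of histone H3 (H3K9me3) in chromatin immunoprecipitation (ChIP) libraries, although input libraries read them well. They were selected on the readout itself: each had 60 or more reads over the 4 input libraries and 3 or fewer over the 4 H3K9me3 libraries. The limit of 60 input reads was met by 32903 autosomal windows, of which the members were 1.46%, and the whole table held 38157 windows. The members formed 454 loci once overlapping windows were joined. Their low H3K9me3 is therefore the rule and not a result; what follows describes which promoters they were, what else they shared, and how the few reads were divided between migrated and non-migrated cells.

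SiHa is a cell line derived from a cervical squamous carcinoma. Cells were placed on a porous transwell membrane and 10 h later the fraction that had passed the membrane and the fraction that had stayed behind were collected apart. The 4 groups were H3K9me3 of migrated cells, H3K9me3 of non-migrated cells, input of migrated cells and input of non-migrated cells, each with 1 library in set 1 and 1 in set 2. Input is sonicated chromatin sequenced without antibody. All groups came from the same unmodified line with no genetic change or drug named in the labels, and the only contrast between cells was crossing the membrane. The sets differed in library kit and in clean-up (gel extraction in set 1, beads in set 2), and set 1 was rich in duplicate reads, which were removed. A second biological replicate is named for set 2 only, so the replicates may be partly technical. With n = 2 libraries per group and set terms in the model, a window's residual spread is how far its fraction differences disagree between the sets. The limma fit drew that spread towards a value shared over all windows, with 33.1 prior against 2 residual degrees of freedom. The p-values and standard errors therefore rest largely on the shared value. The label of the migrated H3K9me3 library of set 1 gives replicate 1 in its title and 2 in its description; the title was followed.

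H3K9me3 is laid down by methyltransferases of the SUV39H and SETDB families and is bound by HP1 proteins. It covers constitutive heterochromatin, repeats and silenced gene families such as zinc finger and odorant receptor clusters. Promoters of constantly used genes usually lie in CpG islands, stretches rich in CG dinucleotides that stay unmethylated, and many such promoters fire in both directions.

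The libraries were shallow over promoters. In autosomal windows the H3K9me3 libraries held 82833 reads in migrated and 155464 in non-migrated cells of set 1, and 925475 in migrated and 1075524 in non-migrated cells of set 2. The input libraries held 658415 and 372816 reads in set 1 and 1623146 and 1671423 in set 2, in the same order of fractions. The median autosomal window of the migrated H3K9me3 library of set 1 held 1 read and 30.6% of its windows held none, so a 0 in that library says little by itself. Depth outside promoter windows is unknown.

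RefSeq promoters of a few genes that name members are printed here. The sequence of the windows themselves was not read. These promoters were matched by gene and need not lie inside the window. Each line gives the RefSeq promoter (GRCh38.p14, 250 bases before to 50 bases after the annotated start, 5′ to 3′ on the gene's strand), and capitals mark CG dinucleotides. GPR108 (chr19:6737531-6737830, minus strand), IRF2BP2 (chr1:234610129-234610428, minus) and SMURF2 (chr17:64662258-64662557, minus) are members without any H3K9me3 read and are dense in CG. FOS (chr14:75278578-75278877, plus) is an inducible member with a TATAAA box at -33. The printed promoter of IFI44L (chr1:78620198-78620497, plus), a member without H3K9me3 reads, has no CG at all, and that of SHROOM3 (chr4:76434979-76435278, plus) has few. ZNF208 (chr19:22010894-22011193, minus), a zinc finger gene picked after its values were seen, is no member: its window held 250 H3K9me3 reads against 80 input reads.
GPR108: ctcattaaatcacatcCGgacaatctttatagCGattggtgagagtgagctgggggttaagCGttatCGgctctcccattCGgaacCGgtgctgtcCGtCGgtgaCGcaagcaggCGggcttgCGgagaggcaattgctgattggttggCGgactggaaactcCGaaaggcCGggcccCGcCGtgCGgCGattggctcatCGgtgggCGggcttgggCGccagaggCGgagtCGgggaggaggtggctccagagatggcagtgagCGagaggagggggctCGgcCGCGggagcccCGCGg
IRF2BP2: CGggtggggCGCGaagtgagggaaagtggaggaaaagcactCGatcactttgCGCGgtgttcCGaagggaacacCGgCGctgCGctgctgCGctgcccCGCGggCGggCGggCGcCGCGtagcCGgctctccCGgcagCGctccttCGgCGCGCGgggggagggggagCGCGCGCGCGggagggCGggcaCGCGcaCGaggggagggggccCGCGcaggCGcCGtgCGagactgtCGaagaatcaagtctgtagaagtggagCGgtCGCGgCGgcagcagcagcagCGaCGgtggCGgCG
SMURF2: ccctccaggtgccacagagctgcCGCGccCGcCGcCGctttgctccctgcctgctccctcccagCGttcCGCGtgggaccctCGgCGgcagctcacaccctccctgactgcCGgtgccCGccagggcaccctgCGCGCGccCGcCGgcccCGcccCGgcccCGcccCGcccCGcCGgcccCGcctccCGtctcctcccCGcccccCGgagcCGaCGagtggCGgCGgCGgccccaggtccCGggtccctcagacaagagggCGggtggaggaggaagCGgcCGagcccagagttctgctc
FOS: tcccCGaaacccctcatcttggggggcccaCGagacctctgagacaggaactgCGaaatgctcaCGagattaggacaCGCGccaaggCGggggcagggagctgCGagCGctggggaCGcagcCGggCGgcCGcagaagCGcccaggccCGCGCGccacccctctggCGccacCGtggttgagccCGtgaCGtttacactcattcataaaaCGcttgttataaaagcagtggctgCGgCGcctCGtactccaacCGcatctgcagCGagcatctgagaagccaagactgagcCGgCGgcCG
IFI44L: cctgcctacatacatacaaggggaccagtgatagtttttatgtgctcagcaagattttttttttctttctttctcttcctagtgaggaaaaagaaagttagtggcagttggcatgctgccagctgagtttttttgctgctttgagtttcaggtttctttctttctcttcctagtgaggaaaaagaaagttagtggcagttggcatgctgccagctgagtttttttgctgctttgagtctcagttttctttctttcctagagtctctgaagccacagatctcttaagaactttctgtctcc
SHROOM3: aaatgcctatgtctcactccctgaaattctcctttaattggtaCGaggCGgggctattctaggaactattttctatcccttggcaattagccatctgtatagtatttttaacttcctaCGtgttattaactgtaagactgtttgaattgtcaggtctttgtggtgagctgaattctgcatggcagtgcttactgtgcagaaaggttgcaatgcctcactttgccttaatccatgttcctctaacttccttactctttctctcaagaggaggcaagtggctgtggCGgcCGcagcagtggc
ZNF208: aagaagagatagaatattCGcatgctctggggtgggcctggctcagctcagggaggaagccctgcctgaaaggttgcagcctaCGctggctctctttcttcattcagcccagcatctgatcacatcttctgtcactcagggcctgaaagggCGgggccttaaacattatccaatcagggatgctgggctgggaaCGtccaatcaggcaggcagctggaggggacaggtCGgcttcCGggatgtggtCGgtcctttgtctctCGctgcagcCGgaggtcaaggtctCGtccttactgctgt

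CG dinucleotides numbered 29 in the GPR108 promoter, 48 in IRF2BP2, 36 in SMURF2 and 30 in FOS. SHROOM3 had 5, IFI44L had 0 and ZNF208 had 10. The ratio of observed to expected CG (the count of CG times the length, over the product of the C and G counts) was 0.999 in GPR108, 1.23 in IRF2BP2, 0.798 in SMURF2 and 0.957 in FOS, against 0.414 in ZNF208. The promoters printed for member genes therefore span both kinds, rich and poor in CG.

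The members together held 1043 H3K9me3 reads and 52184 input reads, or 2.0 H3K9me3 reads per 100 input reads. The 32424 other windows with 60 or more input reads held 51.5 per 100, and all autosomal windows 51.8. At that mean, 60 input reads go with 31.1 H3K9me3 reads and the median member would have held 53.8. No H3K9me3 read was found in 20 members, while 97 held 1 read, 140 held 2 and 222 held 3. Input reads per member ranged from 60 to 299 with a median of 104, against a median of 115 in the other windows. The members were read in input nearly as deeply as the rest, but both had to reach 60 input reads, so this is partly set by the rule.

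**Figure D1:**
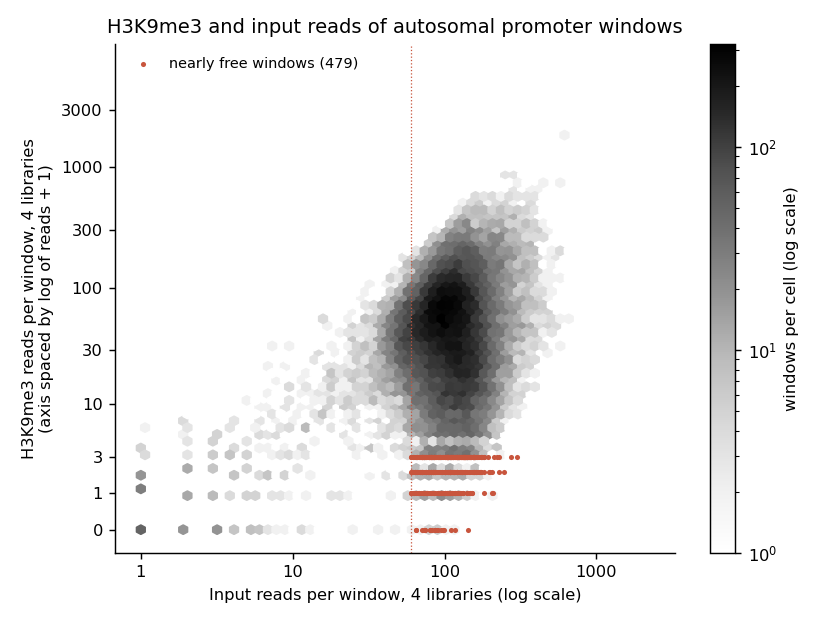
H3K9me3 reads (vertical axis, spaced by the logarithm of reads + 1) against input reads (horizontal, log scale) of autosomal promoter windows with at least 1 input read, each summed over 4 libraries; grey cells count windows, red points are the 479 members and the dotted line is 60 input reads. The members lie at 0 to 3 H3K9me3 reads, below the main cloud around the medians of 47 H3K9me3 and 115 input reads.

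The limits cut through a continuous distribution. Just inside the limit of 3 H3K9me3 reads, the deepest windows were those of MBOAT7 with 299 input reads, FAM174B with 273 and C21orf58 with 227. Just outside it, PDZD7 and CIDEB had 4 H3K9me3 reads on 230 input reads each and C14orf149 had 4 on 223. In all, 286 windows held 4 reads and 329 held 5. At the input limit, 13 members had 60 to 62 input reads, and 4 windows with 3 or fewer H3K9me3 reads had 57 to 59. Without the input limit the count would be 1317 autosomal windows, of which 758 had 0 to 9 input reads.

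Only 105 members had any H3K9me3 read in set 1, since 374 had none there, and 38 had none in set 2. No read in either migrated library was found in 206 members, and none in either non-migrated library in 105. The non-migrated libraries were deeper in both sets. The highest single library held 1 read in 185 members, 2 in 217 and 3 in 57.

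The windows without any H3K9me3 read belonged to genes of varied function. GPR108, which encodes a membrane protein of the Golgi, had the most input: 13 reads in migrated and 7 in non-migrated cells of set 1, and 56 and 67 in set 2 in that order (window chr19:6737514-6739614 in hg19). All 4 of its H3K9me3 libraries were at 0. A count of 0 allows up to 3 reads over the 4 libraries, or 2.10 per 100 input reads, which is at least 24.7-fold lower than the autosomal mean. The overlapping window of TRIP10, on the other strand, held 2 H3K9me3 reads on 136 input reads and is a member too. Limits and intervals here cover counting error only.

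C6orf130 (now OARD1, an ADP-ribose hydrolase) had 118 input reads and 0 H3K9me3 reads, TM7SF3 had 110 and ICK (now CILK1, a ciliary kinase) had 99. Their bounds were at least 20.4-fold, 19.0-fold and 17.1-fold lower than the autosomal mean. The regulators of transcription and chromatin without a read were KIAA1267 (now KANSL1, part of an acetyltransferase complex; 98 input reads), IRF2BP2 (a corepressor; 95), ATXN1 (89), BCL6 (a repressor of B cell genes; 87), ELF2 (an ETS factor; 83), HMGB2 (a DNA-bending protein; 74) and INO80D (a subunit of the INO80 remodeller; 71). SBDS, which matures the large ribosomal subunit, had 90 input reads, DCUN1D4, of the neddylation pathway, had 87, and ANKRD17 had 80. SMURF2 and SMAD7, both inhibitors of TGF-beta signalling, had 86 and 73. NUDCD1 had 74, and IFI44L, an interferon-induced gene, and SHROOM3, an organiser of apical actin, had 65 each. Bounds over this group reached down to at least 11.2-fold lower, at IFI44L and SHROOM3, because fewer input reads set a weaker bound. The last of the 20 windows without a read was a second window of KIAA1267, with 80 input reads.

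GPBP1L1 stood next, with 1 H3K9me3 read on 207 input reads. This read came from migrated cells of set 2, and the other 3 H3K9me3 libraries were at 0. Its input was 34 reads in migrated and 19 in non-migrated cells of set 1, and 69 in migrated and 85 in non-migrated cells of set 2. The level was 0.483 H3K9me3 reads per 100 input reads, with an exact Poisson interval (95%) of 0.0122 to 2.69. At the autosomal mean this window would have held 107 reads.

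**Figure D2:**
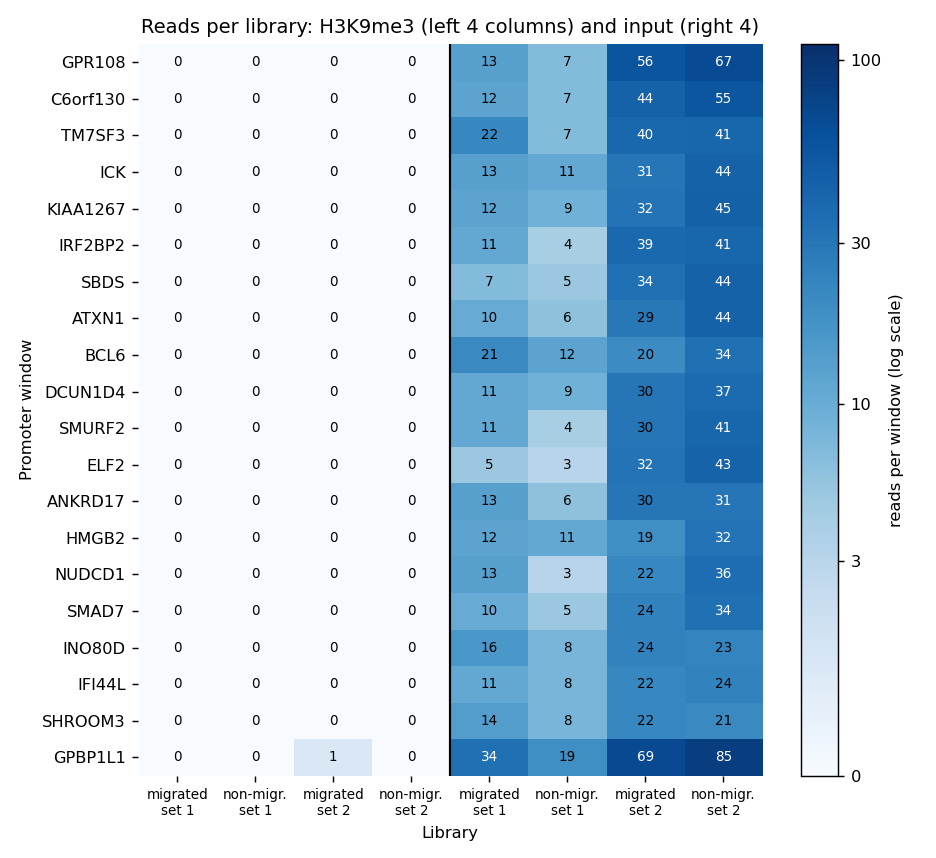
Reads in each of the 8 libraries (columns; H3K9me3 left of the line, input right of it, migrated left of non-migrated within each set) for the 20 members with the fewest H3K9me3 and then the most input reads, overlapping windows counted once and clone names left out; numbers in the cells are reads and shading is on a log scale. In H3K9me3 the 20 windows hold a single read, in GPBP1L1, while every input cell is above 0.

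A window carries the name of a gene it overlaps and can lie on the other strand. The RefSeq reference used held a promoter sequence for 326 members, and for none of the 37 on chromosome 8. Of the 326, 215 lay on the strand of the named gene. The other 111 (34.0%) lay on the opposite one, against 27.1% of other windows. The BCL6, INO80D, ANKRD17, GPBP1L1 and C6orf130 windows above were of the opposite kind, so they need not be the promoter of the gene they are named for. No transcript starting there was identified. Among the windows named below this also held for MRPL46, NDUFC1, EIF2B5, SRSF11, MED23, MED31, GTF2A1, GTF3C1, POLR3C, H2AFZ, HIST2H2BE, MAD2L1, BRCA1, CBX5, EHMT2, ARID4B, PHF10, HDAC4, SETD3, WASF1, RHOA and ZNF652. For ICK, HMGB2, NUDCD1, RPS20, UQCRB, PSMB1, EIF3H, DARS, CCNE2, RAD21, NR4A2, KLF10, BMP2, SLC25A37, TRIP10, AC007285.6, FKBP14, FBXO16 and FZD3 the strand was not compared. FIBP, IPMK, KIAA1267, ANKRD17 and WASF1 each had a member window on both strands. Of the members, 400 (83.5%) could be matched to a RefSeq gene, and 387 of these (96.8%) were protein-coding, against 92.7% of the other windows that matched.

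Gene classes were counted by symbol, and 162 members fell in at least 1 of 31 classes while 317 fell in none. The share of members among windows with 60 or more input reads, 1.46% over all genes, was 10.0% in the TGF-beta pathway (4 of 40 windows), 6.38% in aminoacyl-tRNA synthetases (3 of 47), 5.81% in chromatin modifiers outside the H3K9 pathway (9 of 155), 5.41% in immediate early and stress response genes (4 of 74), 5.26% in mitochondrial carriers and import proteins (4 of 76) and 5.19% in the RNA polymerase and mediator list (7 of 135). Among other lists it was 4.69% in ubiquitin enzymes (6 of 128), 4.24% in chaperones (5 of 118) and 4.2% in antisense RNAs (6 of 143). For splicing factors it was 3.9% (3 of 77) and for histones 3.77% (2 of 53). It was 2.56% in oxidative phosphorylation (2 of 78), 2.38% in mitochondrial ribosomal proteins (2 of 84) and in the Notch pathway (1 of 42). Translation factors had 2.2% (2 of 91). Close to the overall share were cell cycle (1.85%, 3 of 162), proteasome (1.75%, 1 of 57) and DNA repair (1.65%, 2 of 121). The counts are small and no test was made of them.

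Within TGF-beta signalling, the members held both inhibitors and a ligand. Besides SMURF2, a ubiquitin ligase for SMADs and receptors, and SMAD7, which blocks receptor activity, they were SKIL, a corepressor of SMAD complexes, and BMP2, a secreted ligand. SKIL had 1 H3K9me3 read, in migrated cells of set 1, on 78 input reads. BMP2 had 1, in non-migrated cells of set 2, on 72 input reads. Its input was uneven between the fractions: 27 reads in migrated and 3 in non-migrated cells of set 1, and 33 in migrated and 9 in non-migrated cells of set 2, so migrated input was higher in both sets. The change in BMP2 input, migrated over non-migrated, was 1.95 ± 0.53 on the log2 scale (moderated SE, n = 2 sets). Yet its adjusted p by limma was 1.0 over 36440 windows. The same input reads entered the rule, and most of them came from migrated cells. The change in BMP2 input is therefore not independent of how the window was chosen.

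The immediate early members were FOS and JUNB, subunits of the AP-1 transcription factor, KLF10, a TGF-beta-induced zinc finger factor, and the nuclear receptor NR4A2. FOS had 3 H3K9me3 reads, 1 in migrated and 2 in non-migrated cells of set 2, on 211 input reads. That is 1.42 per 100 input reads (0.293 to 4.16). JUNB had 2 on 195 input reads, KLF10 2 on 157 and NR4A2 1 on 96. In these 4 windows no H3K9me3 read came from set 1. The Notch target HES1, a transcriptional repressor, was similar, with 2 reads on 106 input reads, both in non-migrated cells of set 2.

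The transcription machinery gave 7 members. TAF11, a TFIID subunit, had 1 H3K9me3 read on 113 input reads and MED23, a mediator subunit, 1 on 68. POLR2L, a small subunit of RNA polymerases, had 2 on 160 and MED31 2 on 130. The others were GTF2A1, GTF3C1 and POLR3C. Among splicing factors, HNRNPA2B1 had 1 read on 90 input reads and SRSF11 had 2 on 136.

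Protein synthesis and folding gave MRPL39 (1 H3K9me3 read on 146 input reads) and MRPL46 (3 on 181) of the mitochondrial ribosome, and RPS20 (1 on 95) of the cytosolic one. EIF3H had 2 on 91 and EIF2B5 3 on 155. The tRNA synthetases were DARS with 2 on 89, and the mitochondrial YARS2 and CARS2 with 3 on 156 and 3 on 103. The chaperonin subunit TCP1 had 2 on 173, the proteasome subunit PSMB1 3 on 153 and the co-chaperone DNAJB14 1 on 63. Only 1 of 88 ribosomal protein windows was a member (1.14%), a share close to the overall one, although that class had 29.8 H3K9me3 reads per 100 input reads, well below the autosomal mean.

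Respiratory chain subunits gave UQCRB (2 H3K9me3 reads on 80 input reads) and NDUFC1 (3 on 93), and mitochondrial transport gave TIMM9 (1 on 95), SLC25A37 (2 on 63), SLC25A39 (3 on 119) and SLC25A23 (3 on 105). In the cell cycle and repair lists, CCNE2 (cyclin E2) had 3 on 111, the spindle checkpoint protein MAD2L1 3 on 85 and the replication helicase subunit MCM3 3 on 71. BRCA1 had 1 on 129 and the cohesin subunit RAD21 1 on 60, the smallest input that the rule allows. The BRCA1 window lay on the opposite strand and had a divergent start. Histone genes gave HIST2H2BE (2 on 163) and HIST1H2BL (1 on 65).

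The list of H3K9 methylation machinery gave 2 members of 40 windows (5.0%). They were CBX5, which encodes the HP1 alpha protein, with 3 H3K9me3 reads on 165 input reads, and EHMT2, a methyltransferase for H3K9, with 3 on 69. Both windows lay on the strand opposite to the gene and had a divergent start, so they need not be the promoter of the gene they are named for. SUV39H1 lies on a chromosome outside the rule. Other chromatin regulators were ARID4B (1 on 112), PHF10 (2 on 115), HDAC4 (2 on 81) and SETD3 (3 on 129), with ARID1B, ARID5B, CHD1, PHF21A and SMARCA2 beside them.

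Genes of adhesion and cell movement gave 6 member windows of 171 (3.51%). ROCK1, a kinase of the actomyosin cytoskeleton, had 1 H3K9me3 read, in migrated cells of set 2, on 93 input reads. TLN1, which encodes the integrin activator talin, had 2 on 96. WASF1, an activator of actin branching, had 2 member windows: the one on the gene's strand held 3 H3K9me3 reads on 96 input reads, and the one on the opposite strand 2 on 93. RHOA, the GTPase upstream of ROCK1, had 3 on 125, and ITGB8 was the remaining gene. Both reads of TLN1, and both of the opposite-strand WASF1 window, came from non-migrated cells of set 2, while the other WASF1 window had 1 read from migrated cells of set 1 and 2 from non-migrated cells of set 2. Reads this few cannot show a difference between the fractions.

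Some other classes held few members or none. C2H2 zinc finger genes had 3 of 595 windows (0.504%), namely ZNF652, ZNF280D and ZNF438, and as a class 94.3 H3K9me3 reads per 100 input reads. None of 261 olfactory receptor, 49 clustered protocadherin, 58 keratin and 83 matrix protease (MMP, ADAM, ADAMTS and TIMP) windows was a member. Their levels were 82.0, 120.0, 50.5 and 63.6 H3K9me3 reads per 100 input reads. Transcripts known by clone names or LINC symbols gave 79 of 7936 (0.995%). The lncRNA host gene MIR22HG held 2 H3K9me3 reads on 227 input reads, a level of 0.881 per 100 (0.107 to 3.18).

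Many members sat at starts that face a second start. A divergent start, on the opposite strand and at most 1000 bases upstream, was annotated in this table for 141 members (29.4%, Wilson 95% interval 25.5 to 33.7), against 2698 other windows (8.32%, 8.03 to 8.63). Within 300 bases the shares were 20.7% and 6.07%, and within 2000 bases 34.0% and 9.81%. An opposite start 1 to 2000 bases downstream was found in 22.8% of members and 8.02% of other windows. With no other start within 2000 bases were 43.6% of members and 82.2% of other windows. A start so close shares part of its window and its reads with its partner, so paired windows are not independent.

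The 25 loci with 2 member windows were all pairs on opposite strands, with a median overlap of 721 bases. Both windows carried 1 gene's name in 21 of them, such as KIAA1267 (0 and 0 H3K9me3 reads on 80 and 98 input reads), IPMK (1 and 1 on 141 and 140) and FIBP (2 and 2 on 172 and 175). The 4 pairs of different genes were GPR108 with TRIP10, DNAJB14 with H2AFZ (a histone variant gene), AC007285.6 with FKBP14, and FBXO16 with FZD3. With 1 window per locus the divergent share of members was 28.4%.

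The windows just above the members in H3K9me3 had like values. The divergent share was 30.4% (27.6 to 33.4) among 961 windows with 4 to 6 H3K9me3 reads, an interval that overlaps that of the members. It was 23.5% with 7 to 10, 15.7% with 11 to 20, 7.86% with 21 to 40 and 3.67% with 41 to 80. It was 4.98% with 81 or more. The median of observed over expected CG followed, at 0.866 in the members, 0.859, 0.849, 0.841, 0.81 and 0.718 in these bands, and 0.678 at the top.

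**Figure D3:**
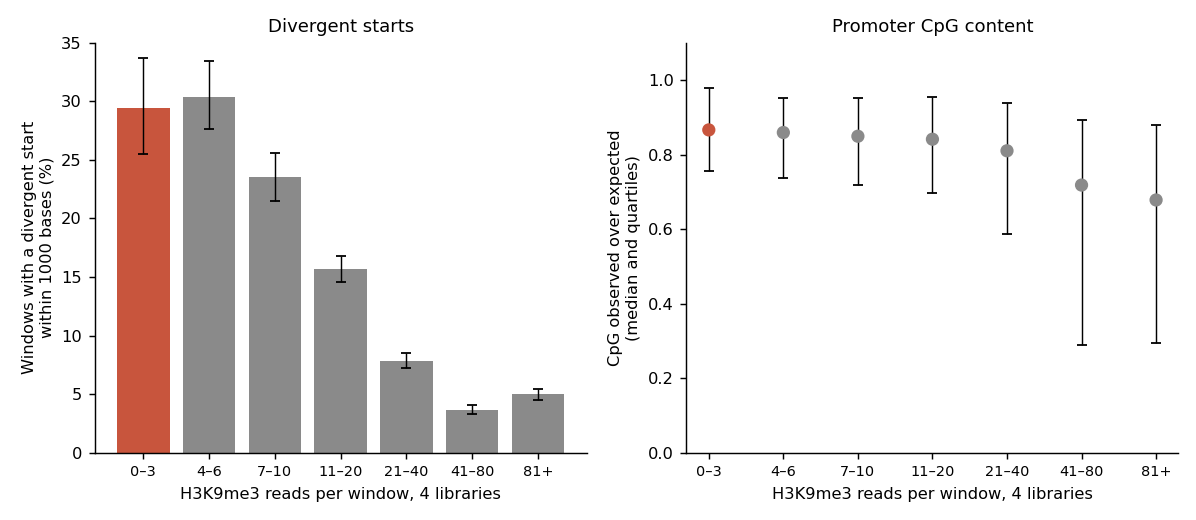
Left, share of windows with a divergent start within 1000 bases (bars, with 95% Wilson intervals) and right, observed over expected CG of the named gene's promoter (points are medians, bars the quartiles), by H3K9me3 reads per window summed over 4 libraries; red is the 479 members. The divergent share is 29.4% in the members, 30.4% in the next band and 3.67% at 41 to 80 reads, while the median CG ratio is 0.866, 0.859 and 0.718 there.

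Sequence was compared for the 215 member genes whose window lay on the gene's own strand, against 10982 other genes. The promoter matched to the gene was used, not the window's own sequence. Members without a promoter sequence were left out, among them all 37 on chromosome 8. The median G+C content was 67.0% in members (quartiles 59.7 and 73.2) and 63.3% in others (55.0 and 71.0). Observed over expected CG was 0.866 (0.757 to 0.978) in members and 0.779 (0.43 to 0.919) in others. At 0.6 or more stood 88.8% of members and 68.0% of others. The 26246 autosomal RefSeq promoters in the reference used had a median of 0.581, lower than the genes behind these windows.

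Short motifs were searched on both strands of the 300 bases. GGGCGG, the GC box, was found in 74.4% of member promoters, 60.7% of others and 44.7% of all autosomal promoters, and it holds a CG itself. CCAAT was found in 41.9%, 36.0% and 35.4%, and TATAAA in 10.2%, 8.87% and 12.0%. CCGGAAG, the core of ETS sites, was found in 14.9%, 14.4% and 10.7%, and the cyclic AMP response element in 4.19%, 2.76% and 2.0%. The longer palindrome of NRF1 was in 0.465%, 1.8% and 1.36%, which is 1 member promoter. A match of letters is not a binding site.

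Split into 10 equal groups by the CG ratio, windows of the poorest group (0.18 or less) gave 0.299% members (4 of 1338) and those of the richest (1.02 or more) 2.54% (34 of 1338). The H3K9me3 level in these groups was 58.8 and 33.4 reads per 100 input reads. Some members were named for genes whose RefSeq promoter was poor in CG, as IFI44L and SHROOM3 above and C21orf58 at 0.18.

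Low H3K9me3 extended past the member windows. Non-member windows that overlap a member (155) had 10.5 H3K9me3 reads per 100 input reads, some of them the same reads. Those 1 to 5000 bases away had 24.4, those at 5001 to 20000 bases 34.4, those at 20001 to 100000 bases 37.5 and those at 100001 to 500000 bases 43.9. Around the other windows, the levels at the same distances were 34.3, 45.9, 46.8, 48.5 and 51.3. The level around members rose with distance and lay below the level around other windows at each distance measured.

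Chromosomes contributed unequally. Chromosome 4 gave 52 members, 4.69% of its windows with 60 or more input reads, chromosome 13 gave 3.45%, chromosome 6 gave 3.11% and chromosome 8 gave 2.86%. Chromosome 20 gave 0.301%, chromosome 22 gave 0.375% and chromosome 16 gave 0.381%. These shares ran against input: the median window of chromosome 4 had 76 input reads and that of chromosome 16 had 207. Over the 22 chromosomes, which share libraries, Spearman's rho of the share and the median input was -0.878 and Pearson's r was -0.803. Input reads enter the rule, so the share and the median input are not independent measures. As many windows were also chosen by the lowest ratio of H3K9me3 to input, a rule tried after seeing the data. Of these, 363 (75.8%) were members too, 34.0% had a divergent start, and rho was -0.935. The shares then lay closer together: 2.52% on chromosome 4, 1.9% on 13, 1.86% on 6 and 2.24% on 8. They were 0.501% on chromosome 20, 0.875% on 22 and 0.666% on 16. The part of depth and copy number in these shares was not tested.

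**Figure D4:**
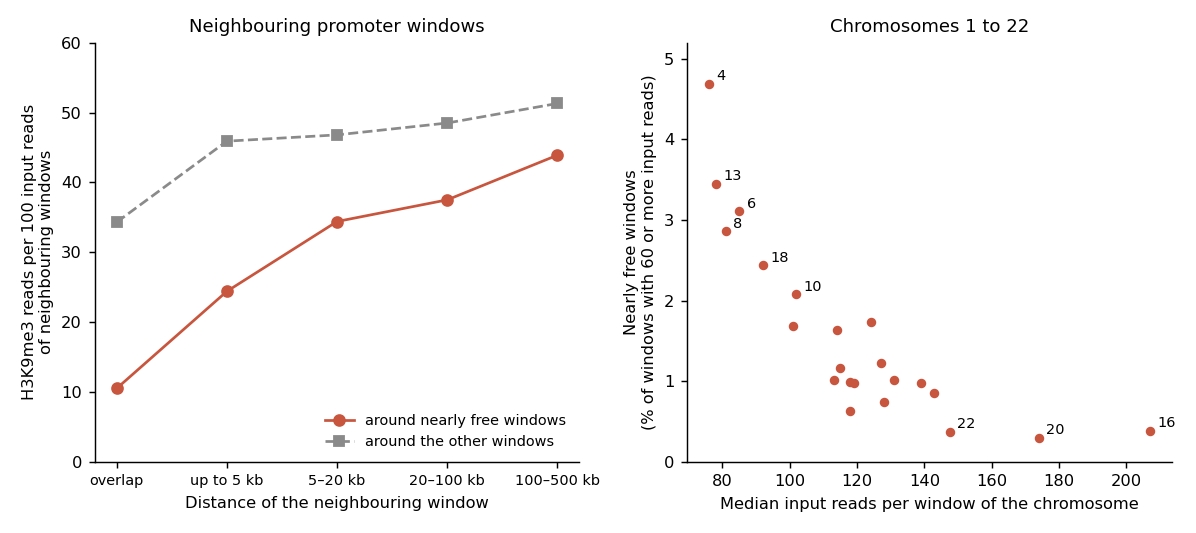
Left, H3K9me3 reads per 100 input reads of promoter windows by distance from a member (red, members left out) and from the other windows (grey); right, members as a share of windows with 60 or more input reads against the median input reads per window, 1 point per chromosome, some numbered. The red line runs from 10.5 at overlapping windows to 43.9 at 100001 to 500000 bases, and chromosome 4 has the highest share at 4.69%.

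The series asks whether H3K9me3 differs between migrated and non-migrated cells. The members held 41 H3K9me3 reads in migrated and 79 in non-migrated cells of set 1, and 344 in migrated and 579 in non-migrated cells of set 2. Per 1000000 reads of autosomal windows this was 495 (exact Poisson 95% interval 355 to 671) in migrated and 508 (402 to 633) in non-migrated cells of set 1. In set 2 it was 372 (333 to 413) in migrated and 538 (495 to 584) in non-migrated cells. The fractions overlapped in set 1, and in set 2 the migrated library was lower.

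Input in the same windows was 7281 reads in migrated and 4255 in non-migrated cells of set 1, and 19648 in migrated and 21000 in non-migrated cells of set 2. H3K9me3 over input, relative to library totals, was 0.0448 in migrated and 0.0445 in non-migrated cells of set 1, and 0.0307 in migrated and 0.0428 in non-migrated cells of set 2. The change, migrated over non-migrated, was 1.01-fold in set 1 (0.672 to 1.48) and 0.717-fold in set 2 (0.625 to 0.82). Its mean on the log2 scale was -0.24 with an SD of 0.345 over the 2 sets, which is larger than the mean. The two-sided exact permutation p was 1.0, and the smallest that 2 against 2 libraries allow is 0.333. That test took all 6 arrangements of the libraries, also across sets, so it did not keep the pairing within sets. The lower value thus came from set 2, and with set 1 alone it was 0.008. When the deposited constants replaced library totals, the mean was -1.3, since those constants differ little between libraries of unequal depth.

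The lower H3K9me3 of migrated cells in set 2 was found in neighbouring bands of H3K9me3 too. The same log2 value was -0.481 in the members and -0.46, -0.463, -0.437 and -0.311 in windows with 4 to 6, 7 to 10, 11 to 20 and 21 to 40 H3K9me3 reads. It was -0.14 at 41 to 80 reads and 0.109 at 81 or more. In set 1 the values ran between -0.204 and 0.089 with no such order. These bands share the libraries of the members, and the kit and depth of the sets cannot be told apart from the set.

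**Figure D5:**
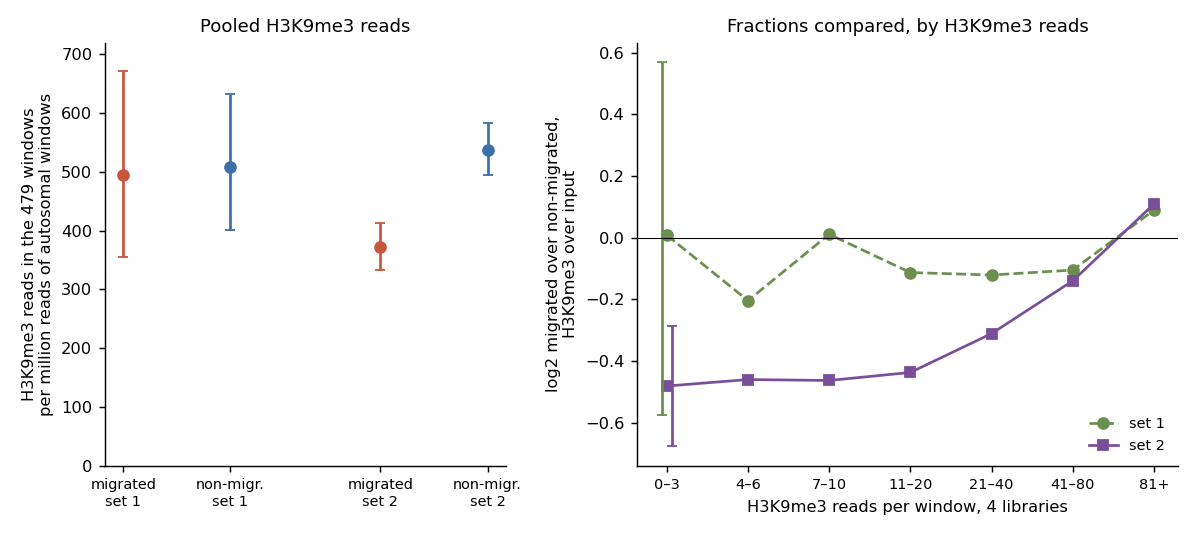
Left, H3K9me3 reads in the 479 members per 1000000 reads of autosomal windows (points, with exact Poisson 95% intervals) in migrated and non-migrated cells of each set; right, log2 of migrated over non-migrated H3K9me3 over input by H3K9me3 reads per window, with counting intervals on the members. In set 2 the members are at 372 in migrated and 538 in non-migrated cells and their log2 value of -0.481 is close to the next 3 bands, while set 1 is at 0.008.

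Window by window, no member was called, in a fit that called none of all windows either. In input, limma called 0 of 476 members that passed the filter on low counts, as it called 0.0% of all 36440 windows; 7 members (1.47%) had an unadjusted p under 0.05, against 1.56% of all windows. For input-corrected H3K9me3 it also called 0 of 476 and 0.0% of all windows, with 19 members (3.99%) at an unadjusted p under 0.05, against 3.52%. Of these 19, 17 were fitted higher and 2 lower in migrated cells. The median input-corrected log2 change of the 476 members was 0.25, against -0.01 over all windows, of the opposite sign to the pooled value of -0.24. With so few reads, a member's fitted value rests largely on the 0.5 added to each count, which the pooled value does without. With the migrated H3K9me3 library of set 1 left out, 2 members and 121 of 36554 windows were called for input-corrected H3K9me3. For ChIP against input, which the rule used, limma called 35.2% of windows lower in H3K9me3, and all 476 members were among them.

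The choice was repeated within a set and read in the other. The limits applied to set 2 alone chose 497 windows, of which 363 were members. In set 1, whose reads did not enter that choice, these windows held 1.25 H3K9me3 reads per 100 input reads in migrated cells and 4.95 in non-migrated cells. Those levels were 0.101 and 0.124 of the levels in the other windows that met the input limit in set 2. The limits applied to set 1 alone chose 112 windows, 1 of them a member. Only 819 other windows met the input limit in set 1, against 25970 in set 2. In set 2 the 112 windows held 9.62 H3K9me3 reads per 100 input reads in migrated and 14.8 in non-migrated cells. The 819 others held 76.1 and 81.4 there (ratios of 0.126 and 0.181). Windows chosen in one set were thus low beside the others in the other set, in both fractions. Those chosen in set 1 were not nearly free in set 2. Windows chosen in set 2 itself held 1.8 per 100 in migrated and 2.69 in non-migrated cells there. Both sets come from the same cell line, so this repeats the measurement in libraries of another kit and not in another line. The replicates may be partly technical, so how far the cells of the sets were separate is not known.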

How the data were processed

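The authors deposited log2 values for 38157 promoter windows in hg19, most of 2100 bases (2000 upstream to 100 downstream of a start), in 1 table per replicate set. Bowtie2 2.2.9 and SAMtools 1.3 appear in the submitters' processing notes, beside FastQC 0.11.5, while no source used here names the program that counted reads. Each deposited log2 value is that of a whole read count, shifted by a constant of its library; empty windows stand at 0.9 reads. Reads recovered this way were whole within 0.01 in 100% of values.

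Windows on chromosomes 1 to 22 with 60 or more input and 3 or fewer H3K9me3 reads were members. Members, gene classes and motifs were chosen with earlier results of these data known. Named windows are the 20 with the fewest H3K9me3 and then the most input reads, up to 4 per class, and those at the limits.

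Tests used limma 3.58.1 in R 4.3.3 on log2 of reads plus 0.5 with precision weights and TMM-scaled sizes, over 36440 windows with 15 or more reads in all and, in at least 2 libraries, the equivalent of 10 reads at median library size. Terms were set, ChIP, their product, fraction, and fraction with ChIP, which left 2 residual degrees of freedom. The spread was moderated over all windows by empirical Bayes, with 33.1 prior degrees of freedom. The p-values were adjusted by Benjamini-Hochberg over all windows. The series text pairs the sets, so the set is a block: deviations of same-numbered libraries from group means correlated at r = 0.147 in H3K9me3 and 0.469 in input. Pooled values used the totals of autosomal windows. Promoter sequences are from RefSeq (GRCh38.p14), matched by gene identifier, symbol and then synonym. Other parts used Python 3.11.15, pandas 2.3.3 and scipy 1.17.1. The fit was tested on simulated data, in which only windows with more H3K9me3 reads than any member were changed. That test does not cover windows with as few reads as the members.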

Additional observations from a re-analysis of the deposited data

How the results depend on the processing

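The number of members followed the limits: 20 windows at 0 H3K9me3 reads, 117 at 1 or fewer, 257 at 2 or fewer and 1094 at 5 or fewer, and 266 with 100 or more input reads, against 479 as reported. It was 504 with 40 or more input reads and 454 with overlapping windows joined. The limits on 1 set gave between 112 (set 1 alone, the shallower) and 497 (set 2 alone). The pooled change between the fractions lay between -0.481 (set 2 alone) and 0.008 (set 1 alone), where it turned its sign. It was -1.3 with the deposited constants as scaling, which leave most of the difference in depth in place, and between -0.286 and -0.205 under the other 5 settings. Members called for input stayed at 0 under all 12 alternatives. Members called for input-corrected H3K9me3 were 0 under 11 alternatives and lay between 0 and 2 when 1 library was left out; the 2 calls came without the migrated H3K9me3 library of set 1, which leaves that group with 1 library that is assumed to vary like the rest. Of all windows, 121 of 36554 were called there, 50 of 36543 without the non-migrated H3K9me3 library of set 1, 1855 of 35963 without the migrated and 1384 of 35986 without the non-migrated one of set 2, against 0 of 36440 with every library. Without the replicate block the count was 0 in input and 0 in input-corrected H3K9me3. The input change at BMP2 lay between 1.82 and 2.15; without either migrated input library its window did not pass the filter. The difference between members and other windows in the median CG ratio was 0.0878 and in G+C 3.67 percentage points, and against all RefSeq promoters 0.285 and 8.67. The fitted log2 of H3K9me3 over input at 93 named windows, whose sign the rule fixes, ranged from -5.77 to -1.36 over 1096 values under alternatives, of which 5, at ZNF438 and NEXN-AS1 with an H3K9me3 library left out, moved by more than the spread between sets. Few H3K9me3 reads per window limit every statement on single windows.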
